A study of Mus musculus with 2 samples.

Results

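Collagens are secreted matrix proteins whose chains wind into a triple helix along stretches in which glycine begins each Gly-X-Y triplet. Fibrillar collagens such as types I, III and V build the load-bearing fibrils of the lung's interstitium, type IV builds the sheet of the basement membrane, and type VI forms beaded filaments around cells. Each chain has its own gene, and most collagens need more than 1 kind of chain, so the ratio between partner chains is part of a cell's collagen profile.

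The collagen genes were taken as every protein-coding gene whose symbol consists of Col, a number, the letter a and a number. The rule found 44 genes among 22046 protein-coding genes, in a table of 54532 genes in all. It did not use measured values, and it left out Col4a3bp (9.43 FPKM), a lipid transfer protein whose symbol begins in the same way. By structure the 44 genes fell into 9 classes: 11 fibrillar genes, 6 basement membrane chains, 6 beaded filament chains, 9 fibril-associated collagens with interrupted triple helices (FACIT), 4 transmembrane collagens, 3 short-chain network collagens, 2 multiplexins, the anchoring fibril collagen and 2 others.

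The cells were LA4, a mouse line labelled as lung epithelial and wild type, grown in Ham's F-12K medium with serum and antibiotics. The labels name 2 samples, 1 per group: a control with no period of co-culture, and LA4 cells cultured with a 10-fold number of lymphocytes for unspecified periods. RNA sequencing was summarised by the authors as a mean FPKM (fragments per kilobase of gene, scaled to library size) for each gene and group. The values below come from a single column, headed only with the name of the line and taken on that ground as the control. The control label also mentions lymphocytes, but the lymphocyte markers Ptprc, Cd3e, Cd3d and Ms4a1 were at 0, and Cd79a had 6 reads. The co-culture group was not analysed here, so no comparison between conditions was made.

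The marker genes went against the label of an epithelial cell. None of 8 epithelial markers reached 1 FPKM, a level that 44.3% of all protein-coding genes reached. Krt8 was the highest at 0.828 FPKM, Cdh1 had 5 reads, and Epcam, Krt18, Ocln, Dsp and Cldn3 were at 0. Of 8 fibroblast and mesenchymal markers 6 reached 1 FPKM, among them Acta2 at 4835, Vim at 823 and Pdgfrb at 47.4 FPKM. Tagln was at 0.216 FPKM (19 reads) and Thy1 at 0. Endothelial markers (0 of 3 at 1 FPKM or more) were near 0, as were the macrophage markers apart from Cd68 at 188 FPKM. Among 4 chondrocyte markers Comp alone exceeded 1 FPKM, at 3.09. The cells are therefore called LA4 cells below, with no cell type.

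The column proved to be the mean of 3 libraries, whose whole-number reads could be recovered from the digits of the deposited values for 99.4% of the genes above 0. Their effective sizes were 15589461, 14389746 and 14350359 reads. Some genes with many reads were not split by library, among them Thbs1 (650418 reads) and Acta2 (381176 reads). The libraries carry no labels and are numbered here by effective size, largest first. Nothing says whether they came from separate cultures. Their values are given one by one, without a test, and differences between them may be technical.

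Short sequences of main chains illustrate the Gly-X-Y repeat of the family. For 5 of the most abundant or structurally distinct chains, the first 45 coding bases of the longest uninterrupted Gly-X-Y run are printed 5′ to 3′ on the mRNA strand, from the GENCODE M21 transcripts, with the glycine codon that opens each triplet in capitals.
Col1a1, codons 168 to 182: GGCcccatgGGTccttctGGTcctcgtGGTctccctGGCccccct
Col1a2, codons 97 to 111: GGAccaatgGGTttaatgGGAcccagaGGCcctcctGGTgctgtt
Col3a1, codons 164 to 178: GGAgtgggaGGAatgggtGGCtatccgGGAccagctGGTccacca
Col4a1, codons 1233 to 1247: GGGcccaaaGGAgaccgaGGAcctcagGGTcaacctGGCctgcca
Col6a1, codons 256 to 270: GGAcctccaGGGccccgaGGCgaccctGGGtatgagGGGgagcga
By the choice of the stretches a glycine codon opened each triplet, and its last base differed. The length of the run differed between the classes. Translation of the principal transcripts gave uninterrupted runs of 337 to 344 triplets in 9 of the 11 fibrillar genes and of 216 and 217 triplets in Col24a1 and Col27a1, while the longest among the 33 other genes was 113 triplets. The basement membrane chains carried 22 to 27 separate runs of 5 triplets or more, and their longest run was 39 to 66 triplets. Col1a1 had a run of 338 triplets, Col1a2 one of 339 and Col3a1 one of 344, against 40 in Col4a1 and 87 in both Col6a1 and Col6a2.

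Collagen expression in LA4 cells was concentrated in few genes. Of the 44 genes, 15 (34.1%) reached 1 FPKM, against 44.3% of all protein-coding genes. At 10 FPKM or more the relation was the other way round, with 12 collagen genes (27.3%) against 20.3% of protein-coding genes. A further 17 genes lay above 0 and below 1 FPKM, with 1 to 86 reads each, and 12 were at 0. The median collagen gene stood at 0.0730 FPKM, compared with 0.270 FPKM for protein-coding genes. The family held 767424 reads, 1.74% of all reads over genes, and its summed level was 2151 FPKM, 0.597% of the FPKM of all genes. Col1a1, Col6a1 and Col1a2 together made up 63.8% of that sum.

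**Figure D1:**
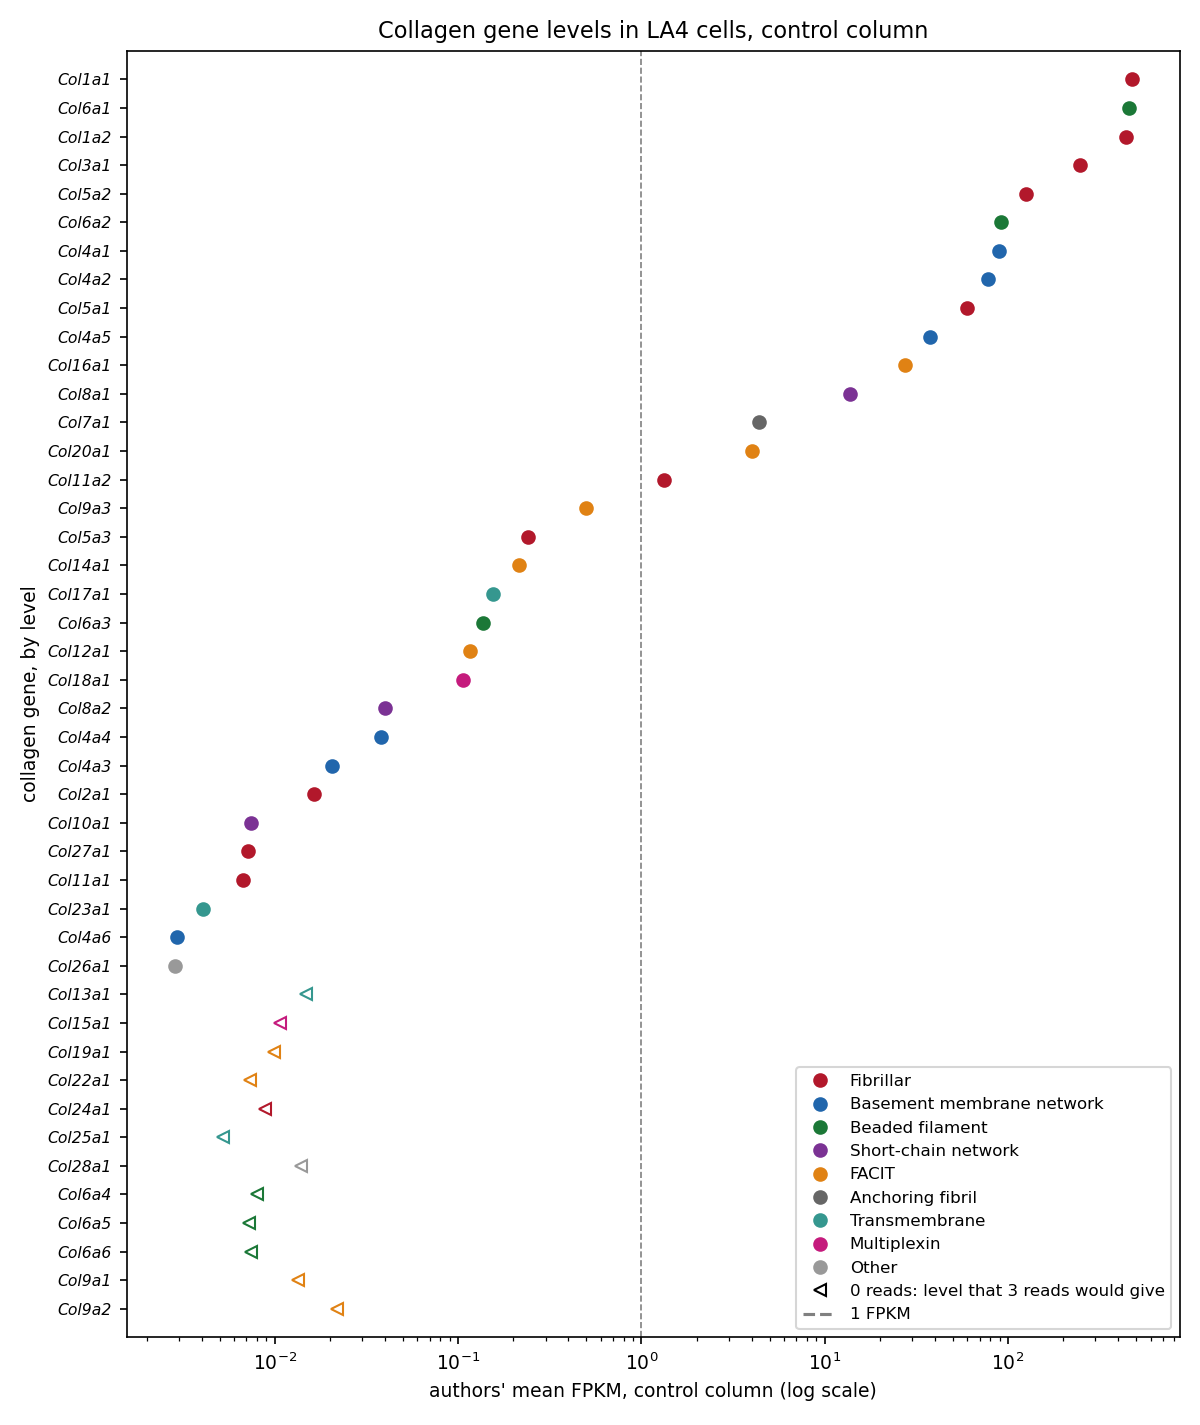
Level of each of the 44 collagen genes as the authors' mean FPKM in the control column, on a log axis and coloured by class; open triangles mark genes with 0 reads at the level that 3 reads would give. There are 15 genes to the right of the dashed line at 1 FPKM and 12 genes with 0 reads.

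Among the fibrillar collagens, 6 of 11 genes reached 1 FPKM, against 44.3% of all protein-coding genes. At 10 FPKM or more were 5 of the 11, against 20.3% of protein-coding genes. Col1a1 (ENSMUSG00000001506; mm10 chr11:94936224-94953042, plus strand), the main chain of type I collagen, had the highest deposited mean of the family, at 474 FPKM and rank 68 among protein-coding genes, a place that depended on the library and on the length used (given further on for Col6a1 and Col1a2). It stood at 556, 426 and 440 FPKM in libraries 1, 2 and 3. Of 40 decoy values placed near that of Col1a1, 5 could also be split into whole reads, which makes its library values less certain. The same held for 4 of 40 near Col6a2 and 2 of 40 near Col4a1. In this draw it held for none near the other collagen genes at 1 FPKM or more with library values. Another random draw found such decoys near other abundant genes too. Col1a2, its partner chain, had a mean of 439 FPKM from about 241698 reads, too many for a reliable split by library. Col3a1, the chain of type III collagen, had a mean of 247 FPKM and stood at 285, 284 and 172 FPKM in the 3 libraries. Library 3 was thus the low one for Col3a1, and library 2 was the low one for Col1a1.

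Type V collagen starts and limits the width of type I fibrils. Its chain Col5a2 had a mean of 125 FPKM, with 124, 135 and 116 FPKM in libraries 1 to 3. Col5a1 was lower, with a mean of 59.6 FPKM and library values of 75.2, 54.4 and 49.3 FPKM. The lowest Col5a2 library exceeded the highest Col5a1 library, and the ratio of Col5a2 to Col5a1 was 2.10, or 1.65 to 2.49 by library. The third chain, Col5a3, stood at 0.242 FPKM with 38, 32 and 4 reads. Col11a2, a chain of the cartilage collagen type XI, was the lowest gene above 1 FPKM, with a mean of 1.34 FPKM and values of 1.65, 0.977 and 1.38 FPKM. Its partners in cartilage, Col11a1 with 4 reads and Col2a1 with 7 reads, were close to 0. Col27a1 had 4 reads and Col24a1 none.

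The basement membrane chains ranged from high levels to a single read. Col4a1 and Col4a2, the partners in the common type IV network, had means of 88.7 and 77.7 FPKM. Col4a1 read 96.6, 87.9 and 81.8 FPKM in libraries 1 to 3. Col4a2 read 82.9, 79.5 and 70.6 FPKM, below Col4a1 in each library. Both genes followed the same order of libraries, and their ratio stayed between 1.11 and 1.17. Col4a5, an X-linked chain, was at 37.7 FPKM with library values of 46.9, 36.9 and 29.3 FPKM, while its X-linked neighbour Col4a6 had 1 read. Col4a3 and Col4a4, the chains that join Col4a5 in the kidney glomerulus and lung alveolus, had 9 and 18 reads.

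The type VI chains differed widely in level. Col6a1 had a mean of 458 FPKM, the second highest of the family, with 499, 517 and 359.5 FPKM in libraries 1 to 3. Its ranges over libraries overlapped those of Col1a1, so the order of these genes was not resolved. Col6a2 was lower, at 91.4 FPKM, with 106, 101 and 67.6 FPKM. Col6a3, the large chain that completes the type VI monomer together with Col6a1 and Col6a2, stood at 0.137 FPKM from 28, 33 and 12 reads. The level of Col6a1 was 5.02 times that of Col6a2 (4.71 to 5.32 by library) and 3340 times that of Col6a3 (2695 to 5143). At most 2.18% of the 31-base words of any collagen gene at 1 FPKM or more occurred in annotated transcripts of another gene. For Col6a3 the share was 0.0%. The effect of reads shared between genes was not tested. Both Col6a1 and Col6a2 were lowest in library 3, and so was Col6a3. The later members Col6a4, Col6a5 and Col6a6, which lie in a row on chromosome 9 and resemble Col6a3 in structure, were at 0.

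The remaining genes above 1 FPKM belonged to the FACIT, short-chain network and anchoring fibril classes. Col16a1, a FACIT collagen found along fibrils and near basement membranes, had a mean of 27.3 FPKM with 32.9, 25.1 and 23.9 FPKM by library. Col8a1, a short-chain network collagen known from vessel walls and the cornea, was the steadiest gene, with 13.3, 13.5 and 14.2 FPKM around a mean of 13.7. Its partner Col8a2 had 8 reads. Col7a1, the anchoring fibril collagen that ties epithelial basement membranes to the stroma, stood at 5.76, 4.24 and 3.08 FPKM, a mean of 4.36 and the widest span of the 14 genes with library values. Col20a1, a FACIT collagen, had a mean of 3.995 FPKM with 3.89, 3.58 and 4.51 FPKM. A transcript annotated within Col20a1 on the same strand, 9230112E08Rik, held 344 reads, 37.8% of the Col20a1 number, and the sources do not say how reads in shared exons were assigned.

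The genes nearest below 1 FPKM were Col9a3 at 0.501 FPKM (86 reads), Col5a3 at 0.242, Col14a1 at 0.214 (67 reads), Col17a1 at 0.156 (40 reads), Col6a3 at 0.137 (73 reads), Col12a1 at 0.116 (79 reads) and Col18a1 at 0.106 FPKM (33 reads). Col17a1, a hemidesmosome collagen of basal epithelial cells, and Col14a1 and Col12a1, FACIT collagens of type I fibrils, thus gave some reads but little signal. Col10a1, Col23a1, Col4a6 and Col26a1 had a single read each. All genes below 1 FPKM together held 506 reads. The 12 genes at 0 were Col13a1, Col15a1, Col19a1, Col22a1, Col24a1, Col25a1, Col28a1, Col6a4, Col6a5, Col6a6, Col9a1 and Col9a2. With 0 reads over the 3 libraries, 3 reads mark the upper limit, which corresponds to 0.00524 to 0.0219 FPKM depending on gene length. This limit covers counting error only. The cartilage collagen type IX was thus represented by the 86 reads of Col9a3 alone. Of the 31-base words of Col9a3, 5.35% occurred in annotated transcripts of another gene, the highest share of the family.

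The libraries did not carry the collagens in equal amount. Library values were available for 14 of the 15 genes at 1 FPKM or more, all but Col1a2. Of these 14 genes, 10 (71.4%) were highest in library 1, against 33.6% of 9658 protein-coding genes with library values at the same level. Library 3 was the lowest for 10 of 14 (71.4%), against 29.9%. The order library 1, then 2, then 3 held for 8 of the 14 genes, and the share of protein-coding genes with this order was not computed. Of the exceptions, Col5a2 and Col6a1 were highest in library 2, Col8a1 and Col20a1 were highest in library 3, and Col1a1 and Col11a2 were highest in library 1 but lowest in library 2.

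The highest library exceeded the lowest by 1.5 times or more for 6 of the 14 genes (42.9%), namely Col7a1 (1.87 times), Col11a2 (1.69), Col3a1 (1.66), Col4a5 (1.60), Col6a2 (1.57) and Col5a1 (1.53). Among protein-coding genes 11.0% did so. For genes with many reads the search for library values left out the widest splits, which bounds this ratio. The median of this ratio was 1.41 for the collagens and 1.21 for protein-coding genes. For log2(FPKM + 1) values, the median collagen difference of library 1 from the mean of the others was 0.32, and that of library 3 was -0.23, while library 2 was at -0.01 (protein-coding medians of -0.0020, 0.0070 and -0.0011). The summed level of the 14 genes was 1928, 1769 and 1433 FPKM in libraries 1, 2 and 3. The mesenchymal marker list summed to 5826 FPKM, but Acta2 (4835 FPKM) and Vim (823 FPKM), which held most of it, had no library values. The other 6 of its 8 genes summed to 168, 195 and 142 FPKM in libraries 1 to 3. This order rested on S100a4: without it, the sums were 131, 108 and 111 FPKM. Of these 6 genes only Pdgfrb was highest in library 1, at 59.2, 44.2 and 38.9 FPKM. Fn1 was highest in library 3 (66.2, 58.3 and 67.9 FPKM). Pdgfra (5.00, 5.32 and 3.52 FPKM) and S100a4 were highest in library 2. Library 1 was the deepest by construction, since the libraries were numbered by size. In bulk RNA, fewer cells of a kind and less RNA per cell cannot be told apart. The part of these values in the collagen pattern was not tested.

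**Figure D2:**
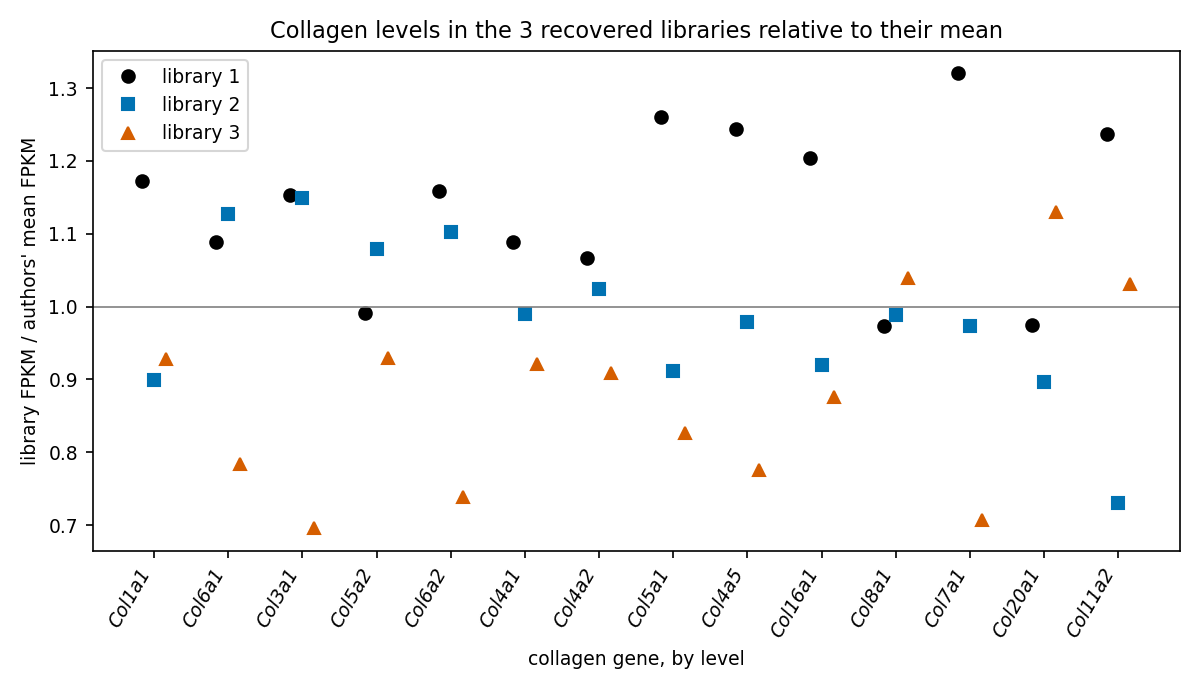
FPKM of each of the 14 collagen genes with library values in each of the 3 libraries, divided by the authors' mean FPKM; symbols stand for single libraries. Library 1 is the highest symbol for 10 genes and library 3 the lowest for 10 genes.

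The order of the most abundant collagens depended on the length by which reads are divided. The authors divided by a gene length that exceeded the length of the principal GENCODE transcript by 1.01 to 2.32 times among the 15 genes at 1 FPKM or more (median of protein-coding genes at that level, 1.34 times). Per principal transcript Col1a2 rose in rank to the top, at 1021 FPKM, followed by Col1a1 at 524.5, Col6a1 at 490 and Col3a1 at 435.5 FPKM. The ratio of Col1a1 to Col1a2 was 1.08 per gene length and 0.514 per transcript length. Col6a1 exceeded Col6a2 by 5.02 times per gene length and 2.54 times per transcript length, and Col6a2 passed Col5a2 in rank. The pairs Col4a1 with Col4a2 (1.14 and 1.26 times) and Col5a2 with Col5a1 (2.10 and 3.01 times) kept their direction, and all 15 genes stayed at 1 FPKM or more. The transcripts actually used by the cells are not known from these values, so ratios between chains carry this uncertainty of scale.

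**Figure D3:**
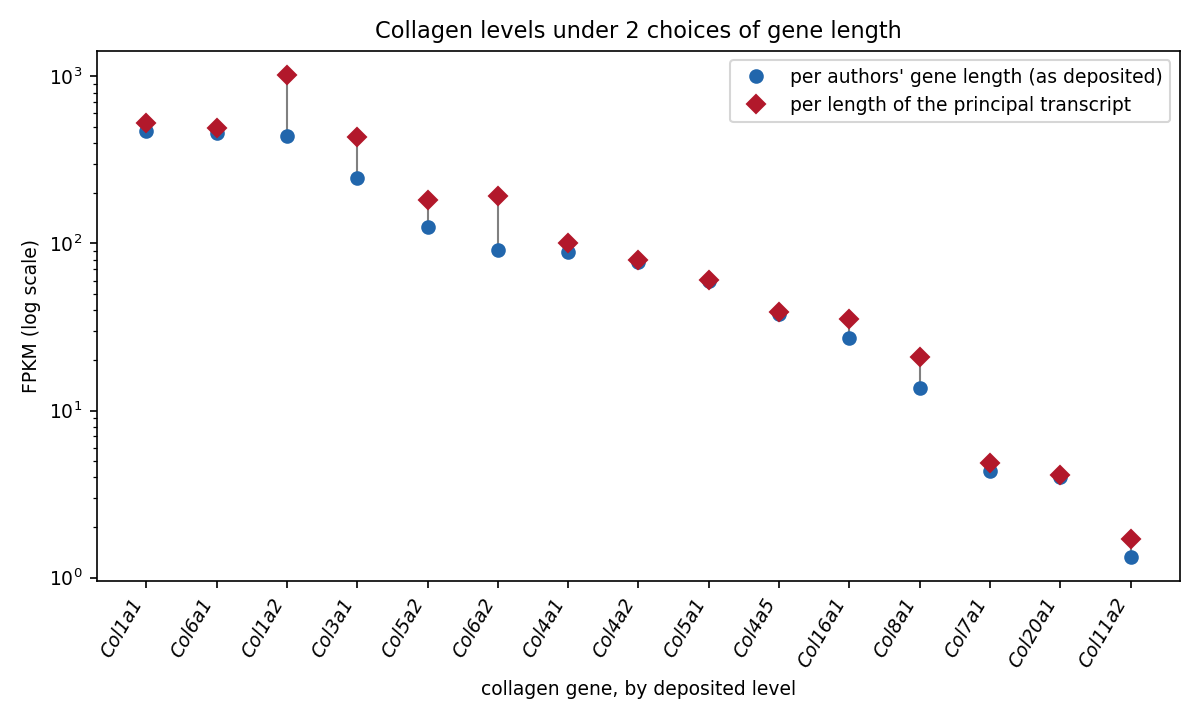
Level of the 15 collagen genes at 1 FPKM or more on a log axis, per the authors' gene length (circles) and per principal transcript length (diamonds); grey lines join the values of a gene. Col1a2 moves from 439 to 1021 FPKM and becomes the highest gene, while Col4a1, Col4a2 and Col5a1 move little.

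Several collagen genes are neighbours in the genome, and the levels of neighbours were alike in some pairs and far apart in others. Within 200000 bases of each other lay 9 pairs. Col3a1 and Col5a2, on chromosome 1 and tail to tail with 24614 bases between them, were both high (247 and 125 FPKM). Col6a2 and Col6a1, on chromosome 10, were also both expressed. Col4a4 and Col4a3 lie head to head on chromosome 1 with 71 bases between them and were both near 0 (0.0380 and 0.0206 FPKM). Col4a1 and Col4a2 are head to head on chromosome 8 with an overlap of 22 bases, and both were expressed. Col4a5 and Col4a6 are also head to head, 1308 bases apart on chromosome X, but with 11300 reads against 1. Since strand handling is not given in the sources used here, reads in the small overlap of Col4a1 and Col4a2 could not be assigned.

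The promoter windows of these last pairs are shown because one pair had similar levels and the other did not. They run from 250 bases before to 50 bases after the start site, 5′ to 3′ on the strand of each gene, from RefSeq on GRCm38.p6 (mm10). Capitals mark the TATA motif (searched as TATAAA), the CAAT box (searched with its usual letters CCAAT) and the GC box (searched as GGGCGG), each on both strands; no overlap between motifs was found in these windows.
Col4a1, chr8:11312777-11313076, minus strand: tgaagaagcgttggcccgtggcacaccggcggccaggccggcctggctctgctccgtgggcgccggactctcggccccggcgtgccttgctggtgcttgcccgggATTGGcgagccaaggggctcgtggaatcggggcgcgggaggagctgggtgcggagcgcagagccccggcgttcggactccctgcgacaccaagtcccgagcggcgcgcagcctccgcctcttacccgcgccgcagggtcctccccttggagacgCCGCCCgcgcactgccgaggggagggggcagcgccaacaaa
Col4a2, chr8:11312555-11312854, plus strand: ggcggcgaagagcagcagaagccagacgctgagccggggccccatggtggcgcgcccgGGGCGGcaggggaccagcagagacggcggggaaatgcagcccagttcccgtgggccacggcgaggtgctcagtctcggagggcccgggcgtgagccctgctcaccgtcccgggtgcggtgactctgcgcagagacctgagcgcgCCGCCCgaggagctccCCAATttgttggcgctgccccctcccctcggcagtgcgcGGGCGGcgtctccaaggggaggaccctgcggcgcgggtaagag
Col4a5, chrX:141475169-141475468, plus strand: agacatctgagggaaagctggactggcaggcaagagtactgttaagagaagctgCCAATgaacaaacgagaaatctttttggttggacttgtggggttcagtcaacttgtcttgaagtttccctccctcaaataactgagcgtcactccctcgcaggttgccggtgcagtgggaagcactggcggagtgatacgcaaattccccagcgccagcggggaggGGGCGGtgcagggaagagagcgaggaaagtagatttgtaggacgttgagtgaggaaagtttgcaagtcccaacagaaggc
Col4a6, chrX:141474027-141474326, minus strand: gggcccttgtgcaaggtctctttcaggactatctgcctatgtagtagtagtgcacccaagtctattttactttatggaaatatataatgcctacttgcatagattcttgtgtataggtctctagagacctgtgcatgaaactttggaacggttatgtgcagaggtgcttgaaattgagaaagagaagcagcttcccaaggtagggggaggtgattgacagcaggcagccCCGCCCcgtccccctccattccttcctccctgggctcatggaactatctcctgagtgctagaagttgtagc
The Col4a1 and Col4a2 windows overlapped by 78 bases, since their RefSeq starts lie 21 bases apart, and 1 GC box lay in the stretch common to both. Each of the 2 windows also held a CAAT box of its own. Col4a5 had 1 CAAT box and 1 GC box, and Col4a6 had 1 GC box and no CAAT box. The TATA motif was found in none of these windows. RefSeq windows were matched for 35 of the 44 genes, 38 windows in all. The GC box was present in 23 of them (60.5%), compared with 35.7% of 32851 promoters of the same length. The CAAT box was present in 13 (34.2%, against 37.4%) and the TATA motif in 5 (13.2%, against 13.6%). A match describes the letters only and says nothing of binding.

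Most of the genes listed for making and handling collagen reached 1 FPKM. Over 6 lists of genes that modify, export, cut, bind or break down collagen, 39 of 60 genes reached 1 FPKM, against 44.3% of protein-coding genes. Of the 15 genes for prolyl and lysyl modification, 10 reached 1 FPKM, and the median gene was at 13.6 FPKM. P4hb, the shared subunit of prolyl 4-hydroxylase and a disulfide isomerase, was the highest at 530 FPKM, and its catalytic partner P4ha1 was at 22.9 FPKM. The lysyl hydroxylases Plod3 (25.4 FPKM) and Plod1 (13.2 FPKM) were present, and the galactosyltransferase Colgalt1 was at 39.9 FPKM. Plod2, which hydroxylates the telopeptide lysines used in cross-links, was at 0 reads, an upper limit of 0.0126 FPKM.

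The prolyl 3-hydroxylation complex gave an uneven picture. P3h1, its enzyme, was at 13.6 FPKM and Ppib, its peptidyl-prolyl isomerase, at 32.6 FPKM, but Crtap, the scaffold that the complex needs, had 2 reads. P3h4 (61.6 FPKM) and P3h3 (29.6 FPKM), which belong to a related lysine-modifying complex, were present, and P3h2 was at 0. All 11 folding and export genes reached 1 FPKM. The procollagen chaperone Serpinh1, also known as HSP47, led them at 372 FPKM, with 406, 347 and 362 FPKM by library. The isomerase Fkbp10 was at 51.6 FPKM. The coat proteins of secretory vesicles Sec13, Sec31a, Sec24d and Sec23a stood at 45.9, 42.8, 12.6 and 10.3 FPKM, and the export receptor Mia3 (TANGO1) at 23.7 FPKM.

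Of the 9 genes for propeptide cleavage 4 reached 1 FPKM, a share close to the 44.3% of all protein-coding genes. The shares of the receptor and breakdown genes below were also near it. Pcolce, which speeds the cleavage of the C-propeptide by Bmp1, was at 275 FPKM and Bmp1 itself at 12.2 FPKM. The N-propeptide protease Adamts2 was at 25.9 FPKM and the proprotein convertase Furin at 16.2 FPKM. Among 10 collagen receptors, 5 reached 1 FPKM: the integrin subunit Itgb1 (357 FPKM), the uptake receptor Mrc2 (109 FPKM), the receptor kinases Ddr2 (40.8 FPKM) and Ddr1 (15.8 FPKM), and the integrin subunit Itga1 (2.87 FPKM). Of 7 breakdown genes 3 did so, the membrane-bound collagenase Mmp14 (128 FPKM) and the lysosomal proteases Ctsb (115 FPKM) and Ctsk (28.5 FPKM), and Mmp8 was at 0. Of 8 fibril-associated genes 6 did so, led by Thbs1 at 2420 FPKM, with Bgn at 422, Sparc at 409 and Fn1 at 64.1 FPKM. Fn1 is also in the mesenchymal marker list.

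These genes varied between the libraries about as much as protein-coding genes did. Library values were available for 36 of the 39 genes at 1 FPKM or more. Of the 36, 3 differed by 1.5 times or more between the highest and lowest library, a share near the 11.0% of protein-coding genes. Their median ratio was 1.21, the same as that of protein-coding genes to the digits given. For 17 of 36 library 1 was the highest, beside 33.6% of protein-coding genes, and for 15 of 36 library 3 was the lowest, beside 29.9%. Single genes went either way: P4hb read 522, 508 and 560 FPKM, highest in library 3, and Serpinh1 406, 347 and 362 FPKM, highest in library 1. Whether the lists differ from the collagens in this respect was not tested.

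**Figure D4:**
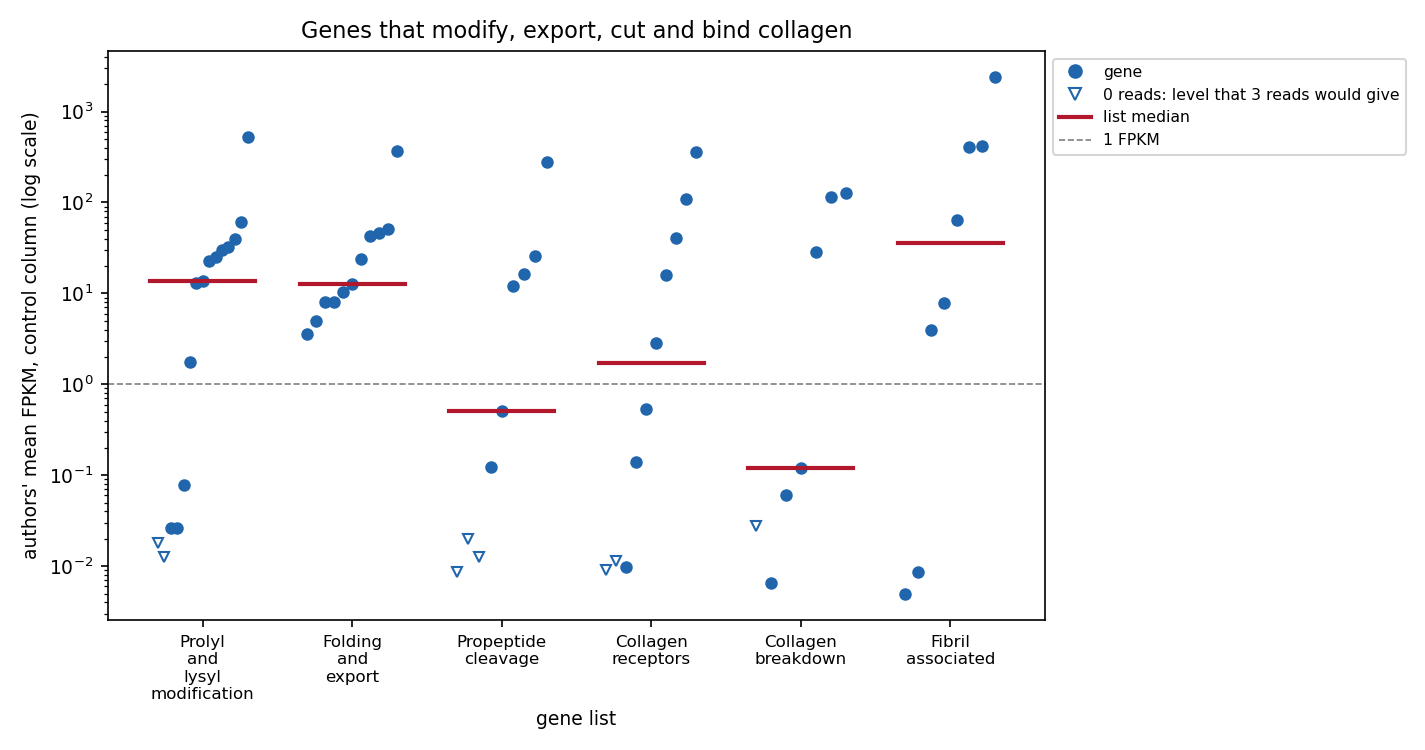
Authors' mean FPKM in the control column of each gene of the 6 collagen-related lists, on a log axis; points are genes, red bars the list medians, and open triangles genes with 0 reads at the level that 3 reads would give. All 11 folding and export genes lie above 1 FPKM, and the breakdown list has a median of 0.121 FPKM with 3 genes above 1 FPKM.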

How the data were processed

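Per the labels' protocols, RNA came from a PureLink column kit, and the SMARTER mRNA-Seq system was used for library preparation. The authors deposited 1 table of FPKM per gene and group, with gene lengths and coordinates, per the file headers. Coordinates are on mm10 (the submitters' processing notes). The sources used here do not give the aligner, the counting, the strand handling or the gene-length rule. Mapping of columns rested on names: the column headed with the name of the line alone was taken as the authors' control mean, and 3 value columns with suffixes matching no label were not used.

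Read numbers were recovered by searching, for each deposited value, the whole reads in 3 libraries whose FPKM, rounded to 15 significant digits, average to it within 2 units of the last place. A second pass allowed 1 library's last digit to round the other way. For genes with many reads, each library was first searched only within a fixed factor of the mean. Wider splits were tried only where that gave no solution, and not for the most abundant genes. Of 21403 genes above 0, 21269 were solved with 1 solution each within the range searched (99.4%). The procedure was revised after its first runs left genes unsolved and was checked on data with known answers. It was also tried on decoy values next to those of the collagens at 1 FPKM or more. Away from Col1a2, 11 of 560 decoys found a solution, at most 5 of 40 for a single gene (Col1a1). Another random draw spread such decoys over other abundant genes too, so the library values of abundant collagens carry this uncertainty. Col1a2, where over 20% did, therefore has no library values, a rule set after the decoys were seen. In all 135 genes have none. The recovered reads over solved genes were 13027350, 12131392 and 12053055 in libraries 1 to 3.

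With 1 labelled sample per group no test was made, and no SD or p is given. Counts used 1 FPKM and 10 FPKM. Library differences used log2(FPKM + 1), minus the mean of the other libraries, over genes at 1 FPKM or more. Named genes were the collagens at 1 FPKM or more or at 0 and list members at 10 FPKM or more, with partner chains. Other genes named were chosen after their values were seen. A lymphocyte marker of the lists is not reported here. The members and lists were chosen with earlier results of these data known. Transcript lengths, Gly-X-Y runs, chain pairs, motifs and the 1.5-fold rule were chosen after values were seen. Principal transcripts came from GENCODE M21, in which all 44 genes had the table's start and end. Alternatives covered pseudocounts, filters, TPM, library sizes, list means, transcript length and leaving out each library. Python 3.11.15, numpy 2.4.6, pandas 2.3.3, numba 0.67.0 and matplotlib 3.10.9 were used.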

Additional observations from a re-analysis of the deposited data

How the results depend on the processing

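With no filter the collagen genes counted were the 32 above 0 instead of 15 at 1 FPKM or more, by construction. The median collagen level was 0.372 over genes above 0, 0.203 as TPM and 0.0977 FPKM per transcript length, against 0.0730. The library 1 difference was 0.0534 with no filter, against 0.32, and 0.11 to 0.39 with one library left out. The library 3 difference was -0.11 with no filter, against -0.23, and -0.39 to -0.15 with one left out. Library 2 lay near 0 and changed sign: -0.0063 with no filter, -0.0055 at 5 FPKM or more, -0.0197 scaled by total reads, 0.0010 as a list mean, 0.0104 scaled by upper quartile, and -0.11 to 0.15 with one left out. The cause was not tested. The other 40 alternative values stayed within 1.5 times or within the spread between libraries, and leaving out a library kept the counts at 15 collagen and 39 processing genes. No paired analysis was possible because 1 sample per group is labelled and 1 column was used. Depth limits the genes under 1 FPKM, which had at most 86 reads each.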

Other observations

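Proteins with a collagen-like domain but other symbols were mostly low: 5 of 30 listed genes reached 1 FPKM, beside 44.3% of protein-coding genes, and 15 were at 0. Emilin1, an elastic fibre glycoprotein, was at 110 FPKM (121, 111 and 97.5 FPKM in libraries 1 to 3), and Colec12, a scavenger receptor, was at 84.3 FPKM (80.7, 95.5 and 76.6 FPKM). C1qtnf6 stood at 32.5 FPKM, with C1qtnf1 at 1.91 and C1qtnf12 at 1.83 FPKM. Of 14 laminin, nidogen and perlecan genes, the other main parts of basement membranes, 6 reached 1 FPKM, a share close to the 44.3% of protein-coding genes. Lamb2 was at 116 FPKM (127.5, 114 and 105 FPKM), the perlecan gene Hspg2 at 44.5 FPKM (52.0, 38.3 and 43.3 FPKM) and Lamc1 at 36.5 FPKM (42.0, 35.9 and 31.7 FPKM). Nid1 (2.91 FPKM), Nid2 (2.27 FPKM) and Lama5 (1.34 FPKM) were lower, although type IV collagen in these cells was at 88.7 and 77.7 FPKM. All 6 were highest in library 1, beside 33.6% of protein-coding genes. Both lists were drawn up after the collagen values were seen.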
